A study of Mus musculus with 9 samples.

Results

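Acot1 and Acot2, a pair of neighbouring acyl-CoA thioesterase genes, were followed over 9 RNA-seq libraries, 3 in each of 3 groups, of the mouse hepatocyte line AML12. They were taken by gene symbol and are 2 of the 10260 gene symbols listed in the deposited tables. Cells of the Ang(1-7) group were given this angiotensin-derived peptide at 100 nM, 30 min ahead of PA at 0.2 mM and OA at 0.4 mM for 24 h. PA and OA are taken to be palmitic and oleic acid. The PA-OA group received the same fatty acids without the peptide, and control cells were left untreated. The labels name no group with the peptide alone and no vehicle, so an effect of the solvent and one of the lipids cannot be told apart. Both genes were chosen by their log2 change in PA-OA against control cells in an earlier analysis of these libraries, so that difference is a description here, without a test.

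Acyl-CoA thioesterases split the activated form of a fatty acid, acyl-CoA, into free fatty acid and coenzyme A. ACOT1 works in the cytosol and ACOT2 in the mitochondrial matrix, both mainly on long-chain acyl-CoA. In mouse liver both genes are known to be induced by fasting and by ligands of PPAR-alpha, the nuclear receptor that senses fatty acids.

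The 2 genes lie side by side on the plus strand of mouse chromosome 12, in a row of type I thioesterase genes that runs Acot2, Acot1, Acot4, Acot3, Acot5, Acot6 in the RefSeq annotation of GRCm38.p6. Each was listed through 1 RefSeq transcript, NM_012006.2 for Acot1 and NM_134188.3 for Acot2. The matching GENCODE M21 transcripts have 3 exons each and lengths of 2272 bases (1260 coding) for Acot1 and 2196 bases (1362 coding) for Acot2. The start of the coding sequence is shown because the first 123 coding bases of Acot2, in capitals, have no counterpart in Acot1 and encode the N-terminal extension that is known to direct ACOT2 to mitochondria. In the Acot1 line, capitals mark the 10 of 60 bases that differ from the aligned Acot2 base.
Acot2 coding bases 1 to 183: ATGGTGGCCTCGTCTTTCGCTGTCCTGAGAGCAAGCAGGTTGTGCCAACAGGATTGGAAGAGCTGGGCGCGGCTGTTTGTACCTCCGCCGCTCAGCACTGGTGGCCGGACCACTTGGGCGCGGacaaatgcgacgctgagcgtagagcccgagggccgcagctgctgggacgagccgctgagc
Acot1 coding bases 1 to 60: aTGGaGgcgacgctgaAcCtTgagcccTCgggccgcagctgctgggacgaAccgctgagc

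Beyond that extension the coding sequences are close copies. Of 1239 aligned coding bases, 1180 were identical (95.2%) and 59 differed. The longest identical run, 273 bases, covers coding bases 887 to 1159 of Acot1 and 1010 to 1282 of Acot2, and is shown because a read that falls wholly inside it carries no letter that tells the genes apart.
Run shared by Acot1 and Acot2: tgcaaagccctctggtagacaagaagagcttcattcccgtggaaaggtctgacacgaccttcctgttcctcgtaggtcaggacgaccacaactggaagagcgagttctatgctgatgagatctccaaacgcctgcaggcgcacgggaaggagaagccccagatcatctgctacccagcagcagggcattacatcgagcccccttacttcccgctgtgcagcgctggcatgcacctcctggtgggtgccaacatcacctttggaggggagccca

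All 527 windows of 50 bases that the transcripts share lie in coding sequence, 23.7% of the windows of Acot1 and 24.5% of those of Acot2. With 150-base windows the shares are 9.84% and 10.2%. Counting the transcripts of Acot3 to Acot6 as well, 32.1% of the 50-base windows of Acot1 and 27.6% of those of Acot2 occur in another gene of the row. The sources used here give neither the read length nor how reads matching several places were treated, so how far the count of each gene holds reads of the other, or lost them, is not known. The 3′ untranslated regions share no 50-base window.

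**Figure D1:**
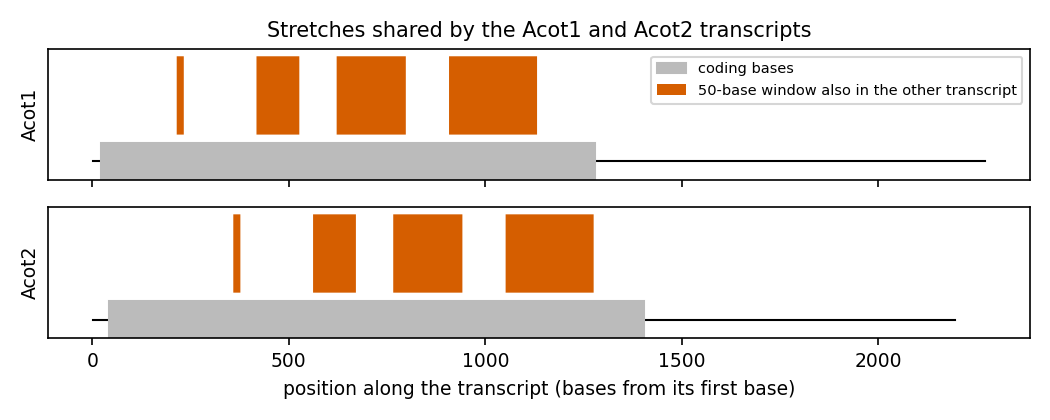
Stretches shared by the Acot1 (top) and Acot2 (bottom) transcripts, by position along each transcript in bases. Orange marks the starts of 50-base windows that also occur in the other transcript, 527 in each, and grey marks the coding bases, which hold them all.

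The windows around the gene starts are shown because both genes were higher with fatty acids. They run from 250 bases before to 50 after the RefSeq start, on GRCm38.p6, plus strand, and both genes were matched. Capitals mark CCAAT boxes and GC boxes on either strand.
Acot1 chr12:84009252-84009551: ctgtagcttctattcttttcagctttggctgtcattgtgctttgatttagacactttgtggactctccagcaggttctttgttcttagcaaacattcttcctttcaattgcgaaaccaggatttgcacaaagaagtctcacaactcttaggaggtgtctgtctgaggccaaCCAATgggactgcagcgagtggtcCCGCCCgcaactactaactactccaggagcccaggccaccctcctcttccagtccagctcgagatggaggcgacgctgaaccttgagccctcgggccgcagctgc
Acot2 chr12:83987611-83987910: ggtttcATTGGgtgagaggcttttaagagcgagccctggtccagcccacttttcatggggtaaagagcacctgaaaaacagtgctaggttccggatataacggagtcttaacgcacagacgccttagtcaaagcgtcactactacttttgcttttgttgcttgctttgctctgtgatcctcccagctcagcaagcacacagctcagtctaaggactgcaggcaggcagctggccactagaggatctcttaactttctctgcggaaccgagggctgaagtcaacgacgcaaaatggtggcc

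In the Acot1 window a CCAAT box began 79 bases before the start, on the strand of the gene, and a GC box (GGGCGG) 55 bases before it on the other strand. In the Acot2 window the CCAAT letters lay 244 bases before the start on the other strand, and GGGCGG was not found. CCAAT occurs on either strand in 37.4% and GGGCGG in 35.7% of the 32851 windows of this length. The direct repeat read by PPAR with its partner RXR, 2 copies of AGGTCA with any 1 base between them, occurs in 0.0396% of the windows. A single AGGTCA, which the repeat contains, occurs in 16.3% and TATAAA in 13.6%. None of these was found in the window of either gene on either strand. This says only that these exact letters are not in these windows.

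The libraries held 24759184 to 28704499 listed counts with fatty acids, in the table of both such groups, and 26567987 to 27357654 in controls. The Ang(1-7) 2 library stood apart, differing from Ang(1-7) 1 and 3 by a chi-square of 254 and 238 for each degree of freedom, where other pairs of one group had 19.7 to 34.6. Of 25 nervous system markers, 11 were listed in the table of the fatty acid groups, and all 11 had counts in Ang(1-7) 2 and 3, against 4 in Ang(1-7) 1 and 3 or 4 in the PA-OA libraries. Their sum was 126, 209 and 191 CPM (counts scaled so that library totals are equal) in Ang(1-7) 1 to 3 and 132 to 138 CPM in PA-OA, mostly from Mbp. Nefl, Nefm, Mog, Stmn2, Thy1 and Tubb3 were at 0 in Ang(1-7) 1 and in every PA-OA library. Among hepatocyte markers, 8 of 10 were listed, with a sum of 21085 to 22452 CPM in Ang(1-7) and 22393 to 23805 CPM in PA-OA that came mostly from Krt8 and Krt18, while Alb had 122 to 550 counts in Ang(1-7) and 80 to 208 in PA-OA. Muscle and adipose markers, from tissues that also express these thioesterases, had 2 of 10 listed and summed to 0.105 to 1.62 CPM in Ang(1-7) and 0.438 to 0.547 CPM in PA-OA.

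In the tables with controls, 2 marker sums stood apart in all 6 libraries with fatty acids, as Acot1 and Acot2 did. The 3 listed of 8 macrophage markers, mostly Cd14, summed to 705 to 808 CPM in Ang(1-7) and 674 to 816 CPM in PA-OA, against 587 to 627 CPM in controls. The 4 listed of 6 cholangiocyte markers, mostly Krt7 and Krt19, summed to 1141 to 1714 CPM in Ang(1-7) and 1568 to 1711 CPM in PA-OA, against 1993 to 2138 CPM in controls. None of these 7 was at 0 in a library, and their part in the levels of Acot1 and Acot2 was not tested. The 7 listed hepatocyte markers summed to 21226 to 22570 CPM in Ang(1-7), 22526 to 23939 CPM in PA-OA and 22784 to 23919 CPM in controls.

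Both genes overlapped between cells given Ang(1-7) with fatty acids and cells given fatty acids alone, and every library of either group lay above every untreated one. Of all genes tested against control, 13.2% lay wholly higher in Ang(1-7) and 12.2% in PA-OA. The genes were picked on the difference of PA-OA from control. Acot1 had 6627, 5721 and 6714 counts in Ang(1-7) 1 to 3, 7314, 6677 and 7147 in PA-OA 1 to 3, against 3949, 3912 and 3547 in controls 1 to 3. Scaled over all 9 libraries, these were 263, 215 and 249 CPM in Ang(1-7), 283, 260 and 277 CPM in PA-OA, and 146, 146 and 136 CPM in controls. The 3 controls lay close together and below all 6 libraries with fatty acids, whereas Ang(1-7) 1 fell inside the PA-OA range and Ang(1-7) 2 was the lowest of the 6.

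Acot2 had 835, 865 and 1200 counts in Ang(1-7) 1 to 3, 984, 1059 and 1185 in PA-OA 1 to 3, against 660, 510 and 507 in controls 1 to 3. The scaled levels were 33.1, 32.5 and 44.5 CPM in Ang(1-7), 38.1, 41.3 and 46.0 CPM in PA-OA, and 24.4, 19.0 and 19.4 CPM in controls. Again no control reached a library with fatty acids. In bulk samples such as these, a change in the share of cells that express a gene and a change in its RNA per cell cannot be told apart. Ang(1-7) 3 lay among the PA-OA libraries, and Ang(1-7) 1 and 2 lay between them and the controls. The order of the group means was the same for both genes, PA-OA, then Ang(1-7), then control, and the first 2 overlapped.

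**Figure D2:**
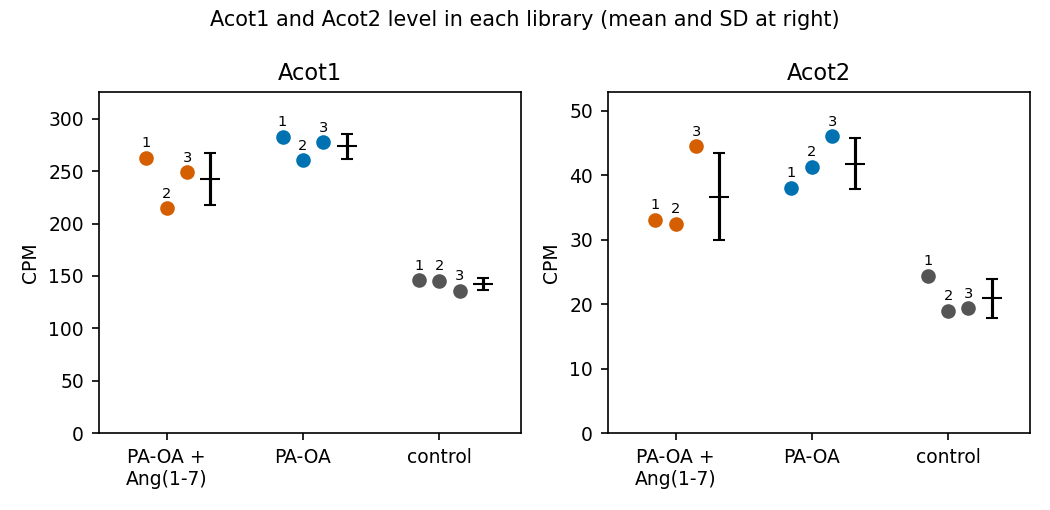
Level of Acot1 (left) and Acot2 (right) in CPM in each of the 9 libraries. Numbers are replicate numbers, bars the mean and SD of 3 libraries. All 6 libraries with fatty acids sit above the 3 controls for both genes, and the Ang(1-7) and PA-OA libraries overlap. Of all genes tested against control, 13.2% lay wholly higher in Ang(1-7) and 12.2% in PA-OA.

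The share of Acot1 in the summed counts of both genes does not depend on how libraries are scaled. It was 88.8%, 86.9% and 84.8% in Ang(1-7) 1 to 3, 88.1%, 86.3% and 85.8% in PA-OA 1 to 3, against 85.7%, 88.5% and 87.5% in controls 1 to 3. Exact Clopper-Pearson 95% intervals ran from 84.0% to 85.6% for the lowest share and from 88.1% to 89.5% for the highest, and cover counting error only. The group means were 86.8 ± 1.99% in Ang(1-7), 86.7 ± 1.24% in PA-OA and 87.2 ± 1.41% in controls (SD, n = 3 each), so the groups overlapped and their means lay within 1 SD of each other. Within the Ang(1-7) group the intervals of the highest and the lowest library did not meet.

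Per length of transcript, Acot1 was the more abundant of the pair in every library. Acot1 averaged 107 ± 10.9 CPM per kilobase in Ang(1-7), 120 ± 5.17 in PA-OA and 62.7 ± 2.55 in controls, and Acot2 averaged 16.7 ± 3.09, 19.0 ± 1.81 and 9.53 ± 1.37 CPM per kilobase in the same groups (SD, n = 3 each). The ratio of these levels ranged from 5.41 to 7.67 in Ang(1-7), from 5.83 to 7.18 in PA-OA and from 5.78 to 7.41 in controls. The shared coding stretches bear on this ratio, and their part in it was not tested.

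The comparison of Ang(1-7) with PA-OA asks whether the peptide altered the response to the fatty acids. For Acot1 the log2 change was −0.18 ± 0.12 (SE), a level 0.885 times that of PA-OA with a 95% interval of 0.735 to 1.07 times (adjusted p = 0.965 by edgeR's quasi-likelihood test, with the Benjamini-Hochberg method over all genes). For Acot2 it was −0.19 ± 0.19, 0.879 times with an interval of 0.653 to 1.18 times (adjusted p = 0.965). Neither gene was called, and both had overlapping groups, where 4.99% of genes lay wholly higher and 6.01% wholly lower in Ang(1-7). Of 9261 genes tested, 0 were called (0%), 236 had an unadjusted p under 0.05 (2.55%), DESeq2 called 3 (0.0324%) and limma-voom 0. The intervals leave room for a level of Acot2 up to 1.18 times that of PA-OA and for one as low as 0.653 times. The PA-OA libraries are also those in which the genes were picked for being high. Without Ang(1-7) 2 the log2 changes were −0.09 for both genes, and with Ang(1-7) 1 as the only library of its group, assumed to vary like the other group, they were −0.06 for Acot1 and −0.33 for Acot2.

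The comparison of Ang(1-7) with control uses the peptide group, which played no part in choosing the genes, but the same controls, so it is no independent support. Acot1 was 1.68-fold higher in Ang(1-7) than in control cells (log2 change 0.75 ± 0.12, 95% interval of the fold 1.40 to 2.03), and just missed the threshold of 0.05 in edgeR (adjusted p = 0.0514). Acot2 was 1.74-fold higher (0.80 ± 0.21, interval of the fold 1.24 to 2.43) and was not called (adjusted p = 0.173). Both genes were higher in 3 of 3 Ang(1-7) libraries than in any control, as were 13.2% of all genes tested, while 15 of 6134 genes were called, all higher (0.245%). By unadjusted p Acot1 stood 21st and Acot2 183rd among the 6134. Both genes passed with DESeq2 (adjusted p = 2.01e-05 for Acot1 and 0.0210 for Acot2), as did 259 of 4469 genes (5.8%). Both also passed in edgeR without the Ang(1-7) 2 library (adjusted p = 9.17e-06 and 0.00661), with log2 changes of 0.84 and 0.88. That setting called 624 genes, against 15 with every library in, so a call was far more common there among all genes. The share of genes called was not computed for it. Of the libraries left out in turn, Ang(1-7) 2 was the only one whose absence gave a call of either gene. It is also the library with the most nervous system transcripts, and their part in the level of Acot1 and Acot2 was not tested.

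In PA-OA against control cells, the comparison on which the genes were picked, Acot1 was 1.92-fold higher (log2 change 0.94 ± 0.08) and Acot2 1.99-fold higher (0.99 ± 0.17). In this comparison 314 of 6213 genes were called (5.05%), 175 higher (2.82%) and 139 lower (2.24%), or 3.89% of transcripts tested singly, and nothing is read from the place of the chosen genes among them. The authors' deposited tables give log2 fold changes of −0.16, 0.73 and 0.91 for Acot1 and −0.17, 0.78 and 0.97 for Acot2, for Ang(1-7) against PA-OA, Ang(1-7) against control and PA-OA against control. The unadjusted p-values in the authors' deposited tables were 0.180 for Acot1 and 0.347 for Acot2 between the fatty acid groups, and 6.89e-10 and 0.000151 for Ang(1-7) against control.

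**Figure D3:**
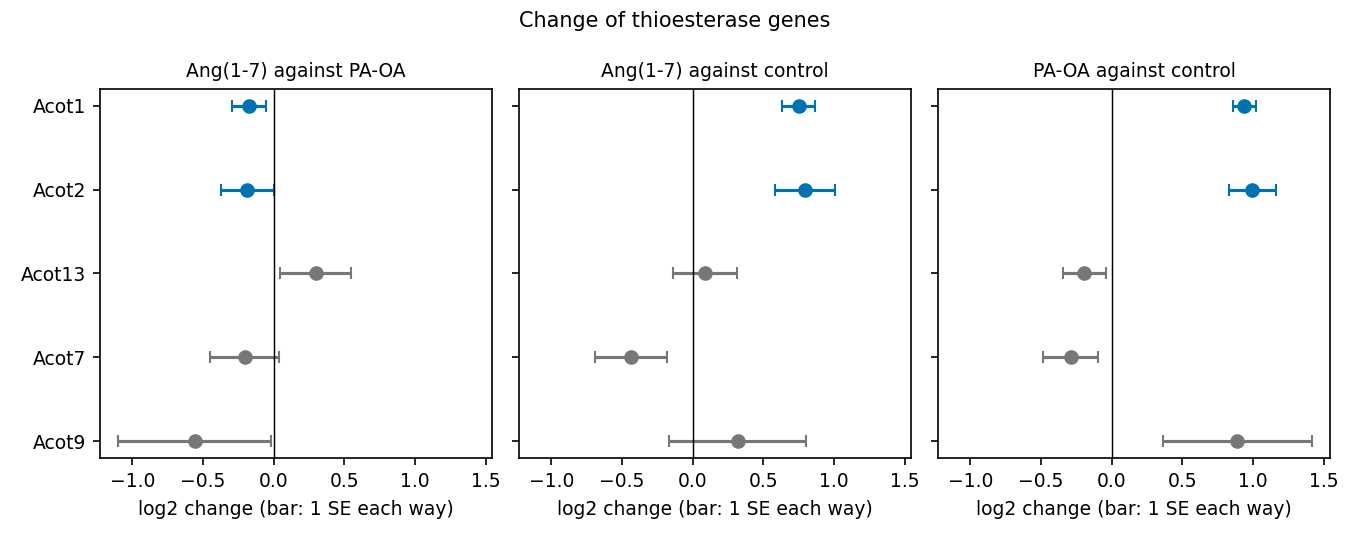
Log2 change of 5 thioesterase genes in edgeR's fit of each comparison, with 1 SE each way. Acot1 and Acot2 (blue) lie near 0.75 and 0.80 for Ang(1-7) against control and at 0.94 and 0.99 for PA-OA against control, with −0.18 and −0.19 between the fatty acid groups. Acot13, Acot7 and Acot9 (grey) were not called in any of the 3, nor were Acot1 and Acot2 in those with Ang(1-7). For Ang(1-7) against control, Acot7 rests on its transcript NM_133348.2 alone. In the other comparisons it also holds NM_001146057.1.

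By edgeR's test, none of the further thioesterase genes was called in any comparison. Neither Acot1 nor Acot2 was called in those with Ang(1-7). Of a list of 16 others, 9 were listed in the table of the fatty acid groups and 7 tested, and 3 were listed and tested in each table with controls. Beside these 0 calls by edgeR's test stand background shares of 0%, 0.245% and 5.05% of all genes. The median log2 change of those tested was 0.01 for Ang(1-7) against PA-OA (all genes −0.01), 0.09 for Ang(1-7) against control (all genes 0.02) and −0.19 for PA-OA against control (all genes 0.01). Acot3, Acot4, Acot5 and Acot6, the other genes of the row on chromosome 12, were among the 16 looked up. Under these symbols none was listed in any table used here, so their expression could not be followed. Only their reference transcripts were used, for the shared windows.

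Acot13, a small thioesterase of the hotdog-fold type found at mitochondria, was the most abundant of these others. It had 1532, 2648 and 1519 counts in Ang(1-7) 1 to 3, 1169, 1835 and 1537 in PA-OA 1 to 3, against 2047, 1593 and 1732 in controls 1 to 3. The 3 groups overlapped, and its high value in Ang(1-7) is that of the library that stood apart. The log2 change was 0.30 ± 0.25 for Ang(1-7) against PA-OA, 0.09 ± 0.22 for Ang(1-7) against control and −0.19 ± 0.15 for PA-OA against control. Acot9, a mitochondrial thioesterase, was low and uneven, with 90, 85 and 53 counts in Ang(1-7), 65, 66 and 200 in PA-OA, and 54, 85 and 46 in controls. The remaining listed genes, Acnat2, Acot8, Acot10, Baat, Them4 and Them5, appeared in the table of the fatty acid groups alone. Their counts ran from 0 to 65 in Ang(1-7) and from 0 to 84 in PA-OA, and the groups of each overlapped.

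Acot7, a cytosolic thioesterase that is abundant in brain, was listed through 2 transcripts that differed from each other. NM_133348.2 had 446, 576 and 358 counts in Ang(1-7) 1 to 3, 534, 351 and 448 in PA-OA 1 to 3, against 706, 495 and 674 in controls 1 to 3, with a log2 change of 0.03 ± 0.27 for Ang(1-7) against PA-OA. NM_001146057.1 had 27, 12 and 26 counts in Ang(1-7), against 108, 110 and 86 in PA-OA, and 81, 57 and 56 in controls in the table of PA-OA and control. Its counts in the Ang(1-7) libraries lay below those of all 6 others. Of genes summed by symbol, 6.01% lay wholly lower in Ang(1-7) than in PA-OA, and the share among single transcripts was not computed. When transcripts were tested singly, its log2 change between the fatty acid groups was −2.23 ± 0.53, which did not pass (unadjusted p = 0.00214, adjusted p = 0.996 in edgeR over 12278 transcripts, of which 0 were called). The authors' deposited table gives it a log2 fold change of −2.24 with an unadjusted p of 2.09e-05. How reads were divided between transcripts of 1 gene is uncertain, and this one was singled out after its values were seen. Summed by gene, Acot7 had a log2 change of −0.21 ± 0.24 between the fatty acid groups (adjusted p = 0.965).

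Around the thioesterases, 6 further lists covered the making and binding of acyl-CoA, coenzyme A turnover, fatty acid oxidation in mitochondria and peroxisomes, and PPAR and its targets. With the 16 thioesterases, the 7 lists held 120 genes. For Ang(1-7) against PA-OA 78 were tested, 0 rose and 0 fell, with 41 positive log2 changes and a median of 0.02 (all genes −0.01). For Ang(1-7) against control 52 were tested, 0 rose and 0 fell, with a median of 0.04 (all genes 0.02). For PA-OA against control 53 were tested, 3 rose and 0 fell, with a median of 0.06 (all genes 0.01). These 3 are 5.66% of the 53, near the 5.05% called among all genes, so their number is no result about the lists. Listed transcripts had a mean of at least 59.5 counts in the table of Ang(1-7) and control, and 56.8 in that of PA-OA and control. The control means of Scp2 (73, 39 and 47 counts) and Nrip1 (42, 48 and 78) lay below both. They were thus listed only through the libraries with fatty acids and support nothing, and the medians against control include them. DESeq2 called 3 of the 40 with an adjusted p for Ang(1-7) against control (7.5%), against 5.8% of all genes, and 0 of 78 for Ang(1-7) against PA-OA, against 0.0324% of all genes.

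The 3 were Cpt1a, Slc25a20 and Ucp2. Cpt1a, which commits acyl-CoA to the carnitine shuttle, had 124, 117 and 88 counts in PA-OA, against 29, 40 and 32 in controls (log2 change 1.75 ± 0.49, adjusted p = 0.0439 in edgeR). Listed transcripts of that table had a mean of at least 56.8 counts, which the controls did not reach. The gene was thus listed only through the PA-OA libraries, where it is high, and the call supports nothing. Other Cpt1a transcripts, listed in the table of the fatty acid groups, are not in the tables with controls used here. Ang(1-7) libraries had 70, 147 and 128 counts of the same transcript, and the log2 change against control was 1.76 ± 0.48 (adjusted p = 0.173), with the same limit. Slc25a20, the carrier that brings acylcarnitine across the inner mitochondrial membrane, had 1899, 1760 and 1880 counts in PA-OA, against 1575, 1237 and 1165 in controls, and rose by 0.53 ± 0.13 (adjusted p = 0.0207). It had 1492, 1954 and 1820 counts in Ang(1-7), a log2 change of 0.41 ± 0.16 against control (adjusted p = 0.293). Ucp2, a mitochondrial carrier of the uncoupling protein family, rose by 1.11 ± 0.31 in PA-OA against control (adjusted p = 0.0439) and had a log2 change of 1.33 ± 0.36 in Ang(1-7) against control, which did not pass (adjusted p = 0.173). None of the 3 passed between the fatty acid groups, with log2 changes of −0.17 ± 0.29 for Cpt1a (summed over the transcripts of that table), −0.10 ± 0.15 for Slc25a20 and 0.24 ± 0.29 for Ucp2 (adjusted p = 0.970, 0.965 and 0.965). The 3 calls did not all last when libraries were left out. With any 1 of the 6 libraries left out, 0 or 1 of the list genes was called, beside 99 to 397 of all genes. With the replicate number as a block 1 was called, beside 303 of all genes.

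The coenzyme A list, whose enzymes make or break down the product that thioesterases release, had no called member. Of its 9 genes tested against controls, 2 had a positive log2 change in Ang(1-7) (median −0.41) and 1 in PA-OA (median −0.16). The acyl-CoA synthesis and binding list had 6 of 9 positive in Ang(1-7) against control (median 0.32) and 9 of 10 in PA-OA against control (median 0.33), again with 0 called. The medians of all genes were 0.02 and 0.01. Acbd6, among the positive genes of PA-OA, had 125, 55 and 71 counts there, against 77, 21 and 22 in controls. The mean of its controls lay below the 56.8 counts of that table, so it was listed only through the PA-OA libraries and supports nothing. Acsl1, a long-chain acyl-CoA synthetase and PPAR target, was tested between the fatty acid groups alone, with 70, 117 and 54 counts in Ang(1-7) and 62, 50 and 31 in PA-OA (difference 0.72 ± 0.52 on the log2 scale, adjusted p = 0.965). Pdk4, a PPAR target that restrains glucose oxidation, stood at 9, 2 and 13 counts in Ang(1-7) and 11, 6 and 10 in PA-OA, with overlapping groups.

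Among the uncalled genes of lowest p in their lists, Acsl3, another long-chain acyl-CoA synthetase, had 240, 1036 and 274 counts in Ang(1-7) 1 to 3, against 212, 195 and 230 in PA-OA and 133, 210 and 145 in controls. Its high value is that of Ang(1-7) 2, and its log2 changes of 1.25 ± 0.51 and 1.66 ± 0.56 did not pass (adjusted p = 0.965 and 0.236 in edgeR). Nudt7, a peroxisomal hydrolase of coenzyme A, had 138, 199 and 135 counts in Ang(1-7), against 92, 72 and 96 in PA-OA, without overlap (as 4.99% of all genes) and without a call (log2 change 0.83 ± 0.35, adjusted p = 0.965). Nudt8, a mitochondrial hydrolase of the same family, had 1137, 959 and 1089 counts in Ang(1-7), against 1417, 1583 and 1613 in controls. Its groups did not overlap, as was so in this direction for 13.3% of all genes, and its log2 change of −0.52 ± 0.16 did not pass (adjusted p = 0.194). Ppard, the gene of PPAR-delta, had 284, 285 and 289 counts in PA-OA, against 214, 239 and 26 in controls, where control 3 alone was low (log2 change 0.90 ± 0.47, adjusted p = 0.307).

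**Figure D4:**
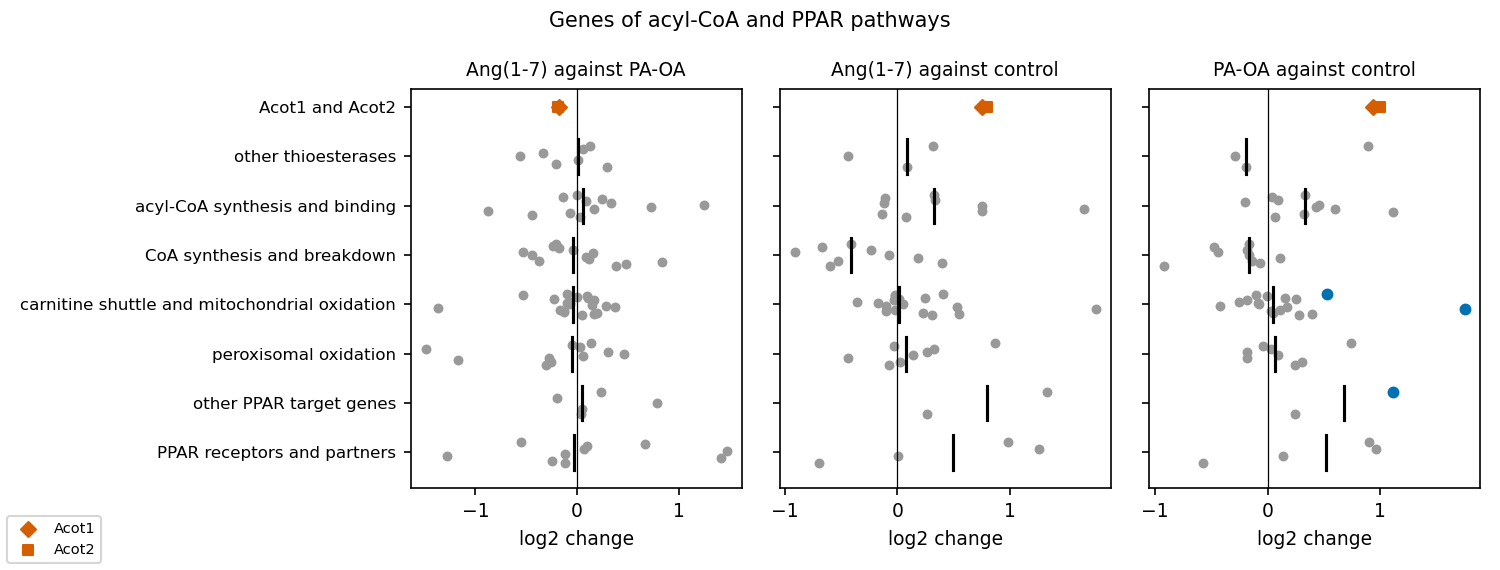
Log2 change of the tested genes of the 7 lists (points), with the list median (black bar), for each comparison. Blue points were called in edgeR, 3 of 53 for PA-OA against control and 0 in the others, and Acot1 (diamond) and Acot2 (square) stand in the top row.

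Across the 9 libraries, the level of Acot1 on the log2(CPM + 1) scale followed that of Acot2 with a Pearson r of 0.934, which placed Acot2 20th among 3957 genes with the same transcripts in every table and a mean of at least 100 counts. The genes nearest to Acot1 were the palmitoyltransferase gene Zdhhc1 (r = 0.988), the chemokine gene Cxcl5 (0.984), the immediate early gene Ier3 (0.983), the chemokine gene Cxcl1 (0.979) and Vil1, which encodes the actin-binding protein villin (0.970). Zdhhc1 averaged 7.31 CPM in Ang(1-7), 8.43 in PA-OA and 4.40 in controls, and Cxcl5 averaged 1557, 1630 and 240 CPM in those groups. The size of the step between groups thus differed widely among genes of like pattern.

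Nearest to Acot2 were Trp53inp1 (r = 0.961), a p53 target, Tmf1 (0.955), Ticam1 (0.945), the adaptor of Toll-like receptor signalling, Idi1 (0.942), an enzyme of isoprenoid synthesis, and Col6a1 (0.942), a collagen chain gene. Trp53inp1 averaged 8.64 CPM in Ang(1-7), 9.10 in PA-OA and 5.47 in controls, and Tmf1 averaged 419, 442 and 375 CPM. The 2 sets of nearest genes had no gene in common, and 5 genes came before Acot1 in the order of Acot2. All these values rest on the same 9 libraries in 3 groups, which share depth and scaling, and they carry no p. Acot1 and Acot2 were both chosen for their step between PA-OA and control, which lies within these libraries, so the r and the ranks between the pair are set in part by that choice. The shared coding stretches bear on this r as well, and their part in it was not tested.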

How the data were processed

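RNA was measured in 9 libraries of AML12 cells, grouped and numbered by their labels. Separate cultures are not stated for samples of 1 group, so the spread behind the p-values may be technical only. The authors deposited a table for every pair of groups, holding whole read counts by RefSeq transcript. The deposited tables also hold the authors' log2 fold change and unadjusted p-value, whose test the file headers do not name. HISAT2 2.2.5 and HTSeq 0.11.2 were used, per the submitters' processing notes. These name a human genome build although the rows are mouse transcripts, and the sources used here give no read length, strand or counting options. Listed transcripts had a mean count of at least 5.17 in the table of the fatty acid groups and 59.5 and 56.8 in those of Ang(1-7) and of PA-OA with control, so genes of low level can be tested in the first alone. A sample had the same count for a transcript in every table that held it.

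Counts were summed by gene symbol and tested within each table with the quasi-likelihood F test of edgeR 4.0.16 (R 4.3.3) after filterByExpr and TMM scaling, with no replicate term, Benjamini-Hochberg adjustment over all genes and a threshold of 0.05. The test scripts were checked on simulated data, with the same spread for every gene and no library that stood apart. That spread was smaller than the one estimated for either comparison with Ang(1-7), so the check does not cover those. The estimated biological coefficient of variation was 44.3% for Ang(1-7) against PA-OA, 30.7% for Ang(1-7) against control and 22.4% for PA-OA against control. CPM over 9 libraries used the 6674 transcripts listed in all 3 tables, with trimmed mean scaling, and marker sums used listed totals without it. No molecular identifiers are known, and reads are not independent molecules, so intervals of shares cover counting error only. Alternatives were DESeq2 1.42.0, limma-voom (limma 3.58.1), other scalings, no filter, a replicate block, 1 fit of all samples, transcripts tested singly, and libraries left out. Sequences were read from RefSeq (GRCm38.p6) and GENCODE M21. Coding sequences were aligned with Biopython 1.88, end gaps free.

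The genes, lists and tests were chosen with earlier results of these data known. Named were Acot1, Acot2, the measured thioesterases, called members of the other lists, some of the genes of lowest p in each list (the rule allowed up to 4 a list, of which 1 was drawn), Cpt1a, Acsl1, Slc25a20 and Pdk4, and the 5 genes of highest r with either gene, with unnamed gene models left out.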

Additional observations from a re-analysis of the deposited data

How the results depend on the processing

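The log2 changes of Acot1 and Acot2 kept their direction in all 3 comparisons under every alternative run, and neither gene was called for Ang(1-7) against PA-OA under any. With single libraries left out, the change of Ang(1-7) against PA-OA ran from −0.23 to −0.09 for Acot1 and from −0.35 to −0.09 for Acot2, that of PA-OA against control from 0.91 to 0.97 and from 0.92 to 1.12, and that of Ang(1-7) against control from 0.67 to 0.84 (adjusted p = 9.17e-06 to 0.382 in edgeR) and from 0.63 to 0.92 (adjusted p = 0.00661 to 0.495). For Ang(1-7) against control, Acot1 passed in DESeq2 (log2 change 0.75) and in the fit of all 9 samples (0.77, adjusted p = 0.00358 in edgeR), and Acot2 passed in DESeq2 (0.79). DESeq2 called 259 of 4469 genes there (5.8%) and the fit of all 9 samples 100, against 15 in the main fit. The cause was not tested. With both Ang(1-7) 2 and Ang(1-7) 3 left out, the log2 change was 0.88 for Acot1 and 0.65 for Acot2. The lone library left in that setting is assumed to vary like the controls.

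Counts of called genes depended on the setting. Ang(1-7) against PA-OA had 3 in DESeq2 and 0 to 18 over the libraries left out, the 18 without Ang(1-7) 1. Ang(1-7) against control had 259 in DESeq2, 100 in the fit of all 9 samples, 229 without Ang(1-7) 2 and 3, and 4 to 624 over the libraries left out (4 without each control, 32 without Ang(1-7) 1, 624 without Ang(1-7) 2 and 7 without Ang(1-7) 3). PA-OA against control had 533 in DESeq2, 33 in the fit of all 9 samples and 99 to 397 over the libraries left out (without PA-OA 2 or 3, 147 or 134, and without control 1 or 3, 99 or 200). Of the listed pathway genes, Ang(1-7) against control had 3 of 40 called in DESeq2 (7.5%, beside 5.8% of all genes). Over the libraries left out it had 0 to 3, the 3 without Ang(1-7) 2, where 624 of all genes were called. PA-OA against control had 0 in the fit of all 9 samples, beside 33 of all genes. Over the libraries left out it had 0 to 1, beside 99 to 397 of all genes. Shares were not computed for the settings other than DESeq2, so these counts are no result about the lists.

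Samples of the same number did not deviate together (r = −0.10 to 0.05 across genes in the 9 pairs), so the numbers give no pairing. With the replicate number as a block, Acot1 and Acot2 had log2 changes of −0.18 and −0.20 in Ang(1-7) against PA-OA cells, of 0.75 and 0.79 in Ang(1-7) against control cells (adjusted p = 0.147 and 0.266 in edgeR) and of 0.94 and 1.00 in PA-OA against control cells, with 0, 10 and 303 genes called and 1 pathway gene called for PA-OA against control. No scaling moved the median of all genes by more than 0.1.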
